A study of Mus musculus with 4 samples.

Results

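The strongest STAT3 peaks that were listed in the sham spinal cord and had no counterpart after contusion injury (SCI) were described here. A peak belonged to this set when it lay on chromosomes 1 to 19 or X, had a score of 25 or more in the sham list and had no SCI peak within 1 kb of its edges. The score is a value the authors attached to each peak, and no source used here gives its scale. The rule took 3096 of the 88757 sham peaks on these chromosomes, 3.49%, and 3096 of the 4296 sham peaks that reached the score. The peaks were thus chosen by their sham scores and by the positions in both lists, so both are given as a description. All peak coordinates are in the mouse genome build mm10.

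STAT3 chromatin immunoprecipitation (ChIP-seq) was done on dissociated cells of the injury epicentre of C57BL/6 mice with a rabbit anti-STAT3 antibody. The sham group received a laminectomy at thoracic level 9 only, and the SCI group a 60 kdyn contusion of moderate grade at the same level, both 7 days before collection. Each condition had 1 STAT3 library and 1 input library, and each library pooled tissue of 3 mice, so no difference between the conditions has a replicate check. The protocols describe no sort for a cell type, so the peaks come from a mixture of cells.

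STAT3 is a transcription factor that waits in the cytoplasm and is phosphorylated by JAK kinases when cytokines of the interleukin-6 family bind receptors containing gp130. The phosphorylated dimer enters the nucleus and binds DNA at sites of the form TTCNNNGAA. In the spinal cord it is known for its role in the reaction of astrocytes to injury, and it also acts in microglia, macrophages and neurons.

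Sequence could be read for the peaks that reached a listed transcription start. RefSeq start windows of build GRCm38.p6 (250 bases before to 50 bases after a start, mm10 coordinates) were at hand for 32619 starts. Of the 2983 strong sham-only peaks on chromosomes with such windows, 26 (0.872%, 95% exact binomial interval 0.570 to 1.27%) overlapped such a window, 16 of them at protein-coding genes. All intervals given here cover counting error only. The sequences below are the bases of the peak that lie before the start, read 5′ to 3′ on the strand of the gene. They show a feature found in 15 of the 26 peaks, an unbroken run of A or T. They also show the single STAT site found in the peak bases that a window covered. Of the 8, 7 were picked because they hold a run. Capitals mark runs of 12 or more A or T and the letters TTCNNNGAA. The last sequence, at Ikzf1, has neither and is shown for contrast.
Sbno2 (chr10:80101188-80101269, minus strand): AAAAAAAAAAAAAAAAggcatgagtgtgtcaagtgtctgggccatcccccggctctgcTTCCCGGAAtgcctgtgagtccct
Spp1 (chr5:104434871-104435060, plus strand): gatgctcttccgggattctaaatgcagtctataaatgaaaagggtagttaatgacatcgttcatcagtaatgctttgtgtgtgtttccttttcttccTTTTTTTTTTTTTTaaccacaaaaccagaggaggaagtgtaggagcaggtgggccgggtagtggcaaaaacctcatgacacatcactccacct
Samsn1 (chr16:75909267-75909433, minus strand): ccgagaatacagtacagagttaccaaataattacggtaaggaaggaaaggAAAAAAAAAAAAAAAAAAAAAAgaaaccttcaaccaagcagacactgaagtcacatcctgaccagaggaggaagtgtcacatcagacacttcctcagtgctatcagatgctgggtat
Slc7a11 (chr3:50443614-50443743, minus strand): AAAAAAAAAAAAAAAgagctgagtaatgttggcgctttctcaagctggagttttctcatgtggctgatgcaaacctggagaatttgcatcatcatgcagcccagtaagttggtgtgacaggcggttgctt
Chsy1 (chr7:66109242-66109389, plus strand): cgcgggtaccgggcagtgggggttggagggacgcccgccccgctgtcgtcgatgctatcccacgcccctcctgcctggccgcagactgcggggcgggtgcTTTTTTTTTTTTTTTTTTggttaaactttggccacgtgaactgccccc
Ttbk1 (chr17:46487676-46487794, minus strand): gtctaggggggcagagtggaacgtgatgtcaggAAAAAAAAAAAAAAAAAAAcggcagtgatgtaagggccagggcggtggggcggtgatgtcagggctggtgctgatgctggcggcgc
Slc18a3 (chr14:32464851-32464885, minus strand): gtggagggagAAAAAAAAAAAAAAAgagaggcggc
Ikzf1 (chr11:11689927-11689987, plus strand): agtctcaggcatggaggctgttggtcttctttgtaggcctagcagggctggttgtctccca

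Runs of A or T were common in the strong sham-only peaks at starts. Among the 22 such peaks with at least 50 bases inside a window, 15 held a run of 12 or more A or T in those bases, 68.2% (45.1 to 86.1%). With at least 100 bases inside a window it was 14 of 15. The runs were 14 to 25 bases long, 9 of A and 6 of T on the strand of the gene, and their middle lay 10 to 88 bases from the peak centre, with a median of 53. Among all 32619 start windows, which at 300 bases are longer than the stretches searched in the peaks, 3.19% held such a run. This feature was noticed in the sequences and then counted, and it can be counted only for the few peaks that reach a start window.

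The share with a run went with the score over the whole sham list. It was 18.4% (47 of 256 peaks) at scores from 5 to below 10, 32.9% (24 of 73) from 10 to below 15, 33.3% (15 of 45) from 15 to below 20 and 38.5% (5 of 13) from 20 to below 25. At scores of 25 or more it was 62.5% (20 of 32, interval 43.7 to 78.9%). Strong sham peaks that did have an SCI peak within 1 kb held a run in 5 of 10 cases (18.7 to 81.3%), an interval that overlaps that of the strong sham-only peaks. Weaker sham peaks without an SCI peak within 1 kb held one in 77 of 343 cases, 22.4% (18.1 to 27.2%), below the interval of the strong ones. Over all scores, 33 of 167 peaks in the SCI list held one, 19.8% (14.0 to 26.6%). For all sham peaks it was 26.5% (22.3 to 31.0%), and these intervals overlap. At scores from 5 to below 10 the SCI share was 15.4% (9.56 to 23.1%). From 10 to below 15 it was 37.0% (19.4 to 57.6%). Both intervals hold the sham share at the same scores. From 15 to below 20, 3 of 11 SCI peaks held a run, and from 20 to below 25, 0 of 4. At 25 or more 1 of 2 did, too few to set beside the strong sham peaks.

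**Figure D1:**
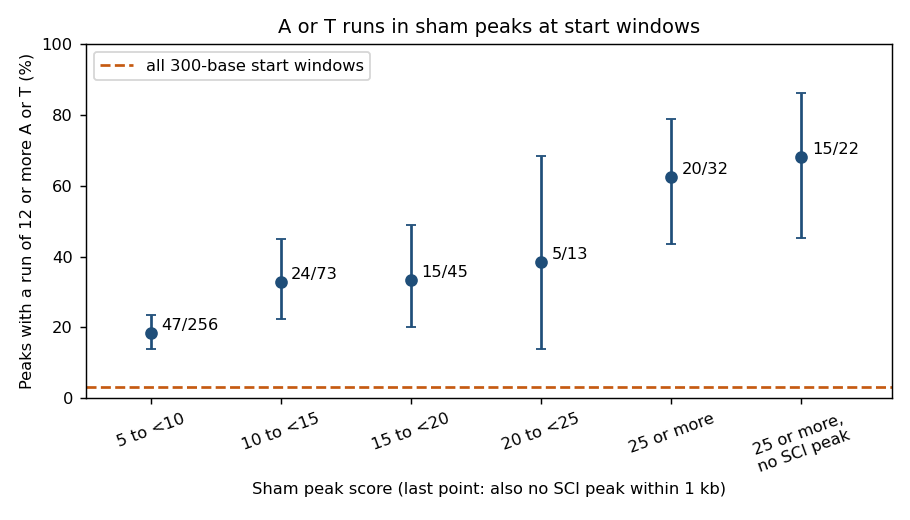
Share of sham peaks with a run of 12 or more A or T (y axis, percent) among peaks with at least 50 bases inside a start window, by score (x axis), with counts and 95% exact binomial intervals. The points lie between 18.4% at the lowest scores and 68.2% for the strong sham-only peaks, all above the dashed line at 3.19% for all start windows.

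Read from the windows, the pattern was present in both lists. A sham peak overlapped 204 of the 1040 start windows with a run, 19.6% (17.2 to 22.2%), and 351 of the 31579 windows without one, 1.11% (0.999 to 1.23%), a ratio of 17.6. An SCI peak overlapped 8.27% and 0.437% of these windows, a ratio of 18.9. A strong sham-only peak overlapped 17 windows with a run, 1.63%, and 9 windows without, 0.0285%. The labels name the DNA SMART ChIP-Seq Kit for the libraries, a chemistry that adds a tail of T to DNA fragments and primes on that tail. Its part in the peaks at runs was not tested.

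The STAT site TTCNNNGAA, which reads the same on both strands, was found inside 1 of the 26 peaks at start windows. Only the peak bases inside a window were searched, and in 4 of the 26 peaks these were fewer than 50. Peak bases outside the windows were not read, and the same count was not made for all sham peaks. That peak lies at Sbno2 (gene ID 216161), a transcriptional co-regulator induced downstream of interleukin-10 and STAT3. Its site TTCCCGGAA, at chr10:80101203-80101211, has its middle 20 bases before the listed start at 80101187. The peak at chr10:80101080-80101269 had a score of 25.7, close to the threshold of 25. The same 82 bases before the start also hold a run of 16 A, printed above. Sbno2 had 3 sham peaks in the gene or within 5 kb and no SCI peak.

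Further sites lay in the windows but outside the peaks. Over the full 300-base windows the STAT site was found in 4 of 26, 15.4% (4.36 to 34.9%), beside 8.34% of all windows. TTCTGGGAA stood 179 bases before the listed start of Slc7a11, with its far edge 53 bases past the peak. The same letters stood 219 bases before the start of Ttbk1, with their far edge 104 bases past the peak. TTCTCTGAA stood 22 bases after the start of Ikzf1, with its far edge 216 bases past the peak. The letters GAGGAA (either strand) are the core bound by ETS factors. They were in 12 of 26 windows, 46.2% (26.6 to 66.6%), beside 28.2% of all windows. In 7 of the 26 they lay in the peak bases that the window covered. The AP-1 site TGANTCA was in 1 of 26 windows (7.85% of all windows), the GC box GGGCGG in 6 (35.9%), CCAAT in 11 (37.6%) and the E-box CACGTG in 1 (7.20%). Each of these shares in all windows lies within the interval of the 26. A match is a description of letters and no measure of binding.

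Within 1 kb of a listed start of a protein-coding gene there were 44 strong sham-only peaks at 44 genes, 25 before the start and 19 after it. Chromosome 18, with 113 of the strong sham-only peaks, had no listed starts and was left out. The share was 1.48% (1.07 to 1.98%) of the 2983 other peaks, the same as the 1.48% of all sham peaks and near the 1.20% (0.657 to 2.00%) of strong sham peaks with an SCI peak within 1 kb. The highest score, 68.1, stood at Carhsp1 (gene ID 52502), which encodes a calcium-regulated RNA-binding protein, with a centre 287 bp before the start (chromosome 16, 8672408 to 8672473). It was followed by Helz2, a helicase and nuclear receptor co-activator, with a score of 46.5 at 356 bp before the start. Lce3c, a gene of the cornified envelope of skin, had 46.4 at 180 bp before. None of these 3 genes had an SCI peak in the gene or within 5 kb.

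Spp1 (gene ID 20750, chromosome 5, 104435111 to 104441053) encodes osteopontin, a secreted matrix protein made by activated microglia and macrophages. Its peak scored 44.8, which only 0.582% of sham peaks reached, and all 190 bp of it lay before the start, with the centre at 146 bp. The nearest SCI peak was 46.1 kb away. The peak holds a run of 14 T and 1 copy of GAGGAA. The next in score were Zbed3 (44.1, 787 bp after the start), Tekt3, a tektin of cilia and flagella (40.0, 360 bp after), Cobll1 (39.1, 969 bp after), Samsn1, an adaptor protein of lymphocytes (39.1, 72 bp before), Specc1l, a cytoskeletal cross-linker (39.0, 965 bp after), and Fcna, the lectin ficolin-A (38.6, 289 bp before). The SCI peak nearest to the Tekt3 peak lay 1.51 kb away, not far beyond the limit of the rule.

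Other starts, picked after their values and sequences were seen, belong to genes of the spinal cord and of immune cells. Slc7a11 (score 30.6, 35 bp before) encodes the cystine-glutamate exchanger, and Chsy1 (32.8, 198 bp before) the synthase of chondroitin sulfate chains. Slc18a3 (26.5, 60 bp after) encodes the vesicular acetylcholine transporter of motor neurons, Ttbk1 (38.2, 24 bp before) a tau kinase, and Ikzf1 (25.4, 231 bp before) a lymphoid transcription factor. Chsy1 and Slc18a3 had no SCI peak in the gene or within 5 kb, Ttbk1 had 1, and Slc7a11 and Ikzf1 had 2 each.

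**Figure D2:**
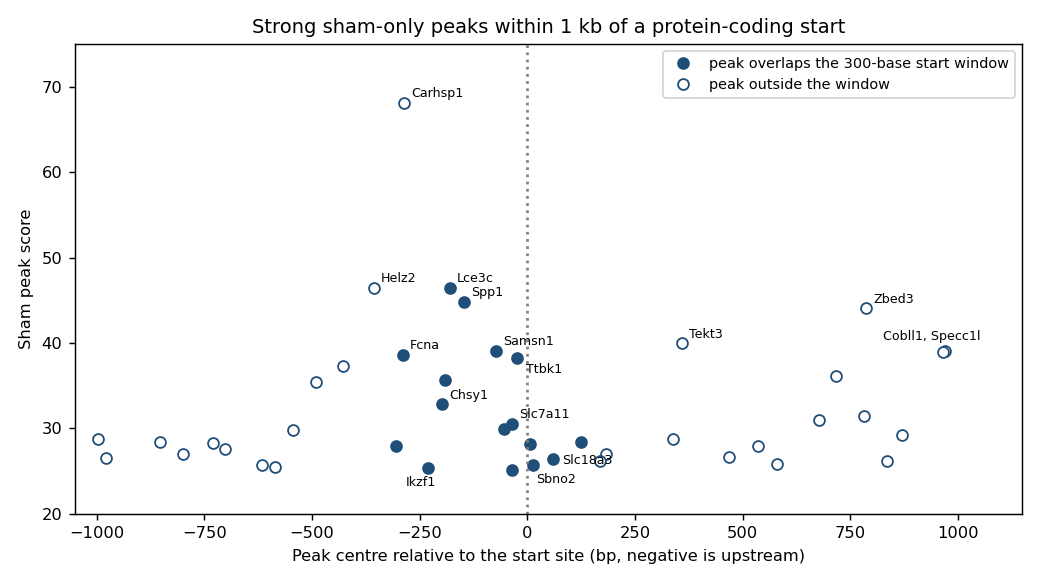
Score in the sham list (y axis) of the 44 strong sham-only peaks within 1 kb of a protein-coding start, against the position of the peak centre from the start (x axis, bp). Filled points overlap the 300-base start window; Carhsp1 stands highest at 68.1, and most points lie below 40 on both sides of the start.

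The scores of the strong sham-only peaks ran from 25.0033 to 132, with a median of 30.8 and a middle range of 27.5 to 36.9. They fell within the top 4.84% of the sham list. Those just inside the threshold lay outside Plcxd2 (25.0135) and inside Sync (25.011) and Ssbp2 (25.0033). The sham peaks without an SCI peak just outside it lay inside Dip2b (24.9956) and Smurf2 (24.9928) and outside Wac (24.9956). The deposited −log10 value, which stands where the layout places a q-value, was 4.05 for all 3096 peaks, the highest value in the sham list, so it does not rank them.

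Stronger sham peaks more often had an SCI peak beside them than weaker ones. Without an SCI peak within 1 kb were 91.4% (91.2 to 91.6%) of the sham peaks at scores from 5 to below 10, 74.99% (72.95 to 76.9%) from 25 to below 30 and 60.7% (51.4 to 69.4%) at 60 or more. The width moved with the score as well. A width of 190 bp, that of 99.0% of all sham peaks, was found in 96.0% of the sham-only peaks at scores from 25 to below 30, 48.9% from 40 to below 60 and 10.8% at 60 or more. Of the 3096 peaks, 2545 (82.2%) had this width, and the narrowest had 50 bp.

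**Figure D3:**
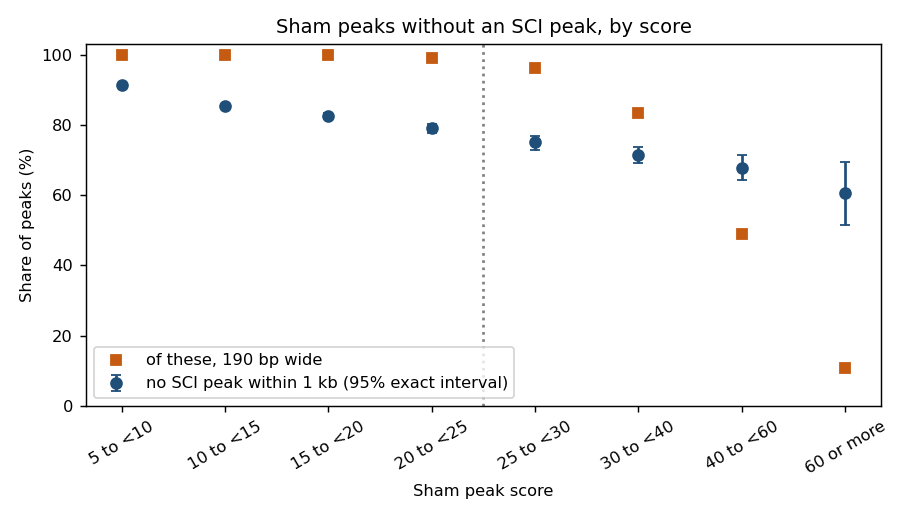
Circles show the share of sham peaks without an SCI peak within 1 kb (y axis, percent, with 95% exact binomial intervals) by score (x axis), and squares the share of those peaks that are 190 bp wide. The dotted line marks the threshold of 25; circles run from 91.4 to 60.7% and squares drop to 10.8% at scores of 60 or more.

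Beyond 1 kb, which the rule did not use, SCI peaks lay about as far from strong sham-only peaks as from weaker ones. The nearest SCI peak was 22.1 kb away at the median and 309 kb at most. For the 75138 weaker sham peaks without an SCI peak within 1 kb the median was 23.8 kb. No SCI peak lay within 10 kb of 74.4% (72.8 to 75.9%) of the strong and 75.4% (75.1 to 75.7%) of the weaker ones. The SCI list had 36239 peaks on these chromosomes, fewer than the sham list, so a peak missing from it cannot be told apart from a shorter list.

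Strong sham-only peaks lay inside protein-coding genes in 1451 of 3096 cases, 46.9% (45.1 to 48.6%). The share was 45.3% (42.5 to 48.2%) for strong sham peaks with an SCI peak within 1 kb and 43.6% (43.3 to 44.0%) for all sham peaks. A further 6.91% (6.04 to 7.86%) lay only inside a non-coding gene, beside 7.96% of all sham peaks. Outside genes, 7.66% lay within 5 kb of the nearest protein-coding gene, 17.2% at 5 to 50 kb, 16.9% at 50 to 500 kb and 4.46% (3.76 to 5.24%) at more than 500 kb. All sham peaks had 6.64% within 5 kb, below the interval of the strong sham-only peaks (6.74 to 8.65%), and 16.5% at 5 to 50 kb. They had 19.5% at 50 to 500 kb and 5.75% at more than 500 kb, above the intervals of the strong sham-only peaks. In all these classes the interval overlapped that of the strong peaks with an SCI peak nearby. The gene table has no exons, so exon and intron were not told apart.

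**Figure D4:**
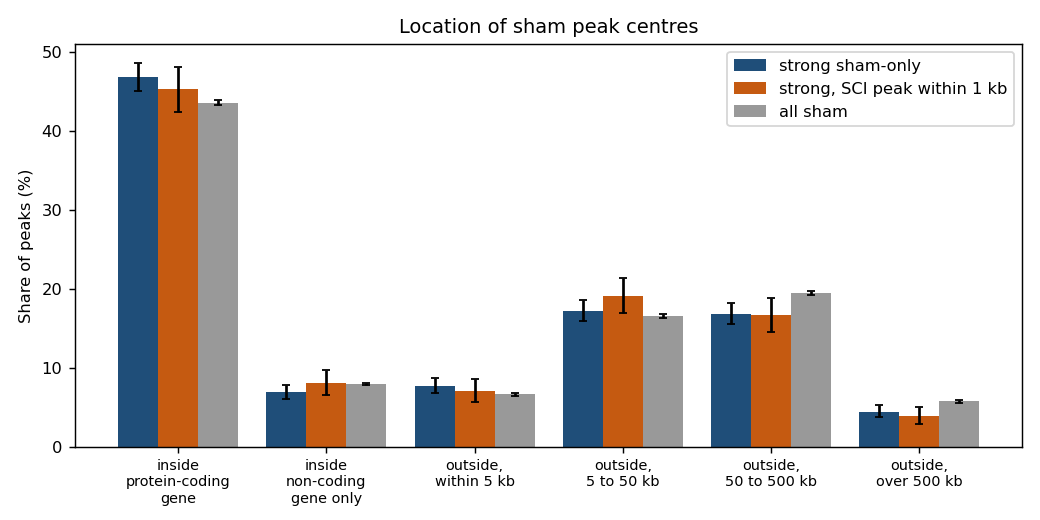
Share of peak centres (y axis, percent, with 95% exact binomial intervals) in 6 location classes by the nearest protein-coding gene (x axis), for strong sham-only peaks, strong sham peaks with an SCI peak within 1 kb and all sham peaks. Inside protein-coding genes the bars stand at 46.9, 45.3 and 43.6%.

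The highest score among the strong sham-only peaks, 132, ranked 4 in the whole sham list, where peaks with an SCI peak nearby reached 167. It stood on chromosome 2 at 181917922 to 181918080, inside a non-coding gene and 28.5 kb from the predicted gene Gm40035. It was followed by 125 inside Cd36 (gene ID 12491, chromosome 5, 17781690 to 17888959), the scavenger receptor and fatty acid transporter of macrophages and endothelium. The Cd36 peak spans 17805512 to 17805639, and the nearest SCI peak lay 143 kb away. Garnl3 (gene ID 99326), a protein with a Rap GTPase-activating domain, held a peak of 115 at 33026862 to 33026996 on chromosome 2. These 3 peaks were 128 to 159 bp wide, all under the usual 190 bp.

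Further peaks among the 10 highest lay inside Zfp978, a zinc finger gene (90.2), and Nudcd3, a chaperone of dynein (84.1), and 14.5 kb outside Rfx7, a transcription factor (87.2). Peaks near Gm51425 (91.7), Speer2 (87.2) and Luzp2 (82.4) lay 414, 721 and 874 kb from these genes, in long stretches without protein-coding genes. The Zfp978 peak had an SCI peak with a score of 15.8 at 1.32 kb, so its place in the set rests on the limit of 1 kb. None of the 10 had the usual width, and 5 of 10 lay inside a protein-coding gene.

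Zeb2, the zinc-finger repressor whose antisense transcript the series is about, was the nearest protein-coding gene of 2 strong sham-only peaks and was picked for that reason. The higher one, on chromosome 2 at 45335470 to 45335594, scored 76.5, the rank of 27 among all sham peaks. It lay 218 kb outside Zeb2 (gene ID 24136), and the nearest SCI peak, with a score of 17.2, was 33.8 kb from it. Of all sham peaks, 65 had Zeb2 as the nearest protein-coding gene, so the 2 make up 3.08% of them, near the 3.49% over all sham peaks.

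By nearest gene, the 3096 peaks fell to 2546 of 21627 protein-coding genes, 11.8%. A single peak was assigned to 2132 of them and 2 or more to 414, 1.91% of all protein-coding genes. These counts went with gene length. The median length was 108 kb for the 414 genes, 51.5 kb for the 2546 and 17.3 kb for all. Of genes over 100 kb 34.8% were nearest to a strong sham-only peak, and of shorter genes 8.86%.

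Genes with several strong sham-only peaks were of different kinds. At 117 of the 414 genes all of these peaks lay inside the gene, with a median gene length of 171 kb. At 163 genes none lay inside, with a median of 38.1 kb, and at 134 some did. G6pd2, an intronless testis copy of the glucose-6-phosphate dehydrogenase gene, was nearest to the most, 7, with scores from 26.5 to 49.4. The gene is 1.64 kb long (chromosome 5, 61808843 to 61810477), and its peaks lay 57.6 to 1430 kb away. It gathered 66 sham peaks in all, of which 10.6% were strong and sham-only, beside 3.49% of all sham peaks. The gene was named for its count of strong sham-only peaks, so its share is high in part through that choice.

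Speer2 and Slitrk1, a neuronal transmembrane protein that shapes neurites, were of the same kind. Each was nearest to 5 strong sham-only peaks, none of them inside. At Slitrk1 the scores were 29.2 to 45.9 and the distances 146 to 1218 kb. Gria3, an AMPA-type glutamate receptor subunit on X, had 4 such peaks with scores from 30.3 to 49.9, all outside the gene.

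Other genes with several of these peaks held at least 1 of them inside. Kcnip4 (gene ID 80334, 1136 kb), a subunit that interacts with voltage-gated potassium channels, had 4 peaks inside and 2 outside. The highest of them, 37.3, lay at 48611967 to 48612156 on chromosome 5. Kcnip4 also had 35 sham and 11 SCI peaks in the gene or within 5 kb. Gpc5, a glypican heparan sulfate proteoglycan, had 3 inside its 1433 kb and 2 outside, with scores from 25.4 to 41.4. Ralyl, an RNA-binding protein, and Elavl2, a neuronal RNA-binding protein, had 1 of 4 inside each. At Elavl2 the peak inside was the highest, 45.4. At Ralyl the highest, 73.4, lay 263 kb outside, and the peak inside scored 25.8.

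Uchl5 and Dph6 (139 kb) had no SCI peak in the gene or within 5 kb. Uchl5 (gene ID 56207, chromosome 1, 143777234 to 143807466), a deubiquitinase of the proteasome, held 3 strong sham-only peaks within 30.2 kb, with scores of 40.4, 25.8 and 40.8. Another, with 58.2, lay 28.9 kb outside, so 4 of the 8 sham peaks nearest to this gene were strong and sham-only. Uchl5 was named for its count of such peaks, so this share is high in part through that choice. Dph6, an enzyme of diphthamide synthesis, had 4, of which the inner one scored 32.7 and the others 26.8 to 49.9. Over all 3096 peaks the next strong sham-only peak was 245 kb away at the median, and 3.55% had another within 10 kb.

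The gene lists are described by counts, with no test and no interval, so the counting error of these small counts is not shown. Microglia and macrophage genes had 7 of 30, 23.3%, beside 11.8% of all protein-coding genes, with median lengths of 17.5 and 17.3 kb. They gathered 10 strong sham-only peaks of 152 nearest sham peaks, 6.58% beside 3.49%. Cd36 was described above. Mrc1, the mannose receptor, had a score of 46.2 at 8.55 kb outside the gene, and Spp1 had the 44.8 before its start. The other 4 were Ctss, a lysosomal protease (44.1), Cd83 (37.9), the scavenger receptor gene Msr1 (37.4) and the endotoxin co-receptor gene Cd14 (26.8). The peaks with these scores lay 1.24 kb from Ctss and 4.95 kb from Cd14, but 247 kb from Cd83 and 263 kb from Msr1. A second peak of Cd83, with a score of 29.8, lay within 5 kb of the gene. Of the 7 genes 3 had an SCI peak in the gene or within 5 kb. Over all genes nearest to a strong sham-only peak this was 63.6%, and 48.6% over those up to 100 kb long. The 7 genes are too few to read a difference.

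In the JAK-STAT3 pathway and target list 12 of 55 genes, 21.8%, were nearest to a strong sham-only peak, beside 11.8% of all protein-coding genes. The list gathered 15 strong sham-only peaks of 329 nearest sham peaks, 4.56% beside 3.49% of all sham peaks. The highest score was 33.1, inside Ptpn11, the phosphatase SHP2 that acts at cytokine receptors (chromosome 5, 121177631 to 121177820). Pias1, a SUMO ligase that restrains STAT proteins, had 31.8 at 39.1 kb, and Pim1, a survival kinase induced by STAT3, had 31.8 at 15.3 kb. The others, with scores from 25.2 to 31.2, were Hif1a, Ptpn1, Il6ra, Bcl6, Icam1, Stat5b, Mcl1, Jak1 and Socs6. The highest peak of Ptpn1 lay 57.7 kb from the gene and the peak of Socs6 214 kb. Those of Il6ra and Mcl1 lay 3.36 and 8.79 kb away. The single peaks of Ptpn11, Bcl6, Icam1, Stat5b and Jak1 lay inside the gene, as did 1 of the 3 at Hif1a. Of the 12 genes 9 also had an SCI peak in the gene or within 5 kb, at another position. Over all genes nearest to a strong sham-only peak this was 63.6%, and the 12 genes are too few to read a difference.

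Markers of other cell types were the nearest protein-coding genes of some of the peaks, several of them far away. Astrocyte genes had 5 of 35, 14.3% beside 11.8%, and 9 of 359 sham peaks, 2.51% beside 3.49%. Id3 (34.3) had its peak 4.56 kb away, and the glutamate transporter gene Slc1a3 (28.5) 36.6 kb away. Those of Nfia, a gliogenic factor (44.8), and Sox9 (25.9) lay 265 and 321 kb away. Gpc5 alone had peaks inside, though its highest lay 804 kb outside. Neuron genes had 5 of 29, 17.2% beside 11.8%, and 3.19% of their sham peaks, led by Stmn2, a microtubule regulator (37.5), Nefh, the heavy neurofilament (34.0), and the splicing factor gene Rbfox1 (32.6). Endothelial and pericyte genes had 4 of 30, 13.3%, and 3.87% of their sham peaks, among them the angiopoietin receptor gene Tek with 51.7 inside the gene, Foxc1 with 36.8 and the VEGF receptor gene Flt1 with 33.4. Oligodendrocyte lineage genes had 2 of 28, 7.14%, and 2 of 133 sham peaks, a share below 3.49%: Pdgfra (46.7, inside) and Cldn11 (26.5).

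For several neuronal gene families the share by gene was well above 11.8%, while the share by peak lay between 2.52 and 3.25%, near or somewhat below the 3.49% of all sham peaks. Synaptic and axonal adhesion genes had 31 of 71, 43.7%, at a median length of 276 kb, and 67 of their 2508 nearest sham peaks were strong and sham-only, 2.67% beside 3.49%. They included Cntnap2, a neurexin-like protein (56.2, inside), and Cadm2 (51.3, 1011 kb away), and 20 of the 31 had 2 or more such peaks. Glutamate receptor genes had 9 of 27, 33.3%, with 2.52% of their peaks. After Gria3, the highest were the NMDA receptor subunits Grin2a (36.2) and Grin3a (33.6), both inside. Axon guidance genes had 23 of 76, 30.3%, with 3.25% of their peaks, led by Rgmb (63.2), Unc5d (47.2) and Sema4d (46.1). Cadherins and protocadherins had 25 of 107, with 2.82% of their peaks, led by Cdh10 (61.5), Fat4 (53.5) and Pcdh18 (52.6).

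Channels, receptors and transporters had shares by gene on both sides of 11.8%. By peak, potassium channels (30 of 674, 4.45%) stood above the 3.49% of all sham peaks. GABA and glycine receptors (8 of 220, 3.64%) and solute carriers (60 of 1671, 3.59%) stood near it. Below it stood receptor tyrosine phosphatases (3.03%), sodium and calcium channels (2.34%), ABC transporters (2.18%) and phosphodiesterases (1.17%). Potassium channel genes had 20 of 94, 21.3%, led by Kcnj2 (59.0), Kcnk9 (52.0) and Kcnt2 (49.8), all outside the gene. GABA and glycine receptor genes had 5 of 26, among them Glra2 (41.1) and Gabra5 (34.7). Sodium and calcium channel genes had 6 of 41, with Cacna2d2 (52.9), Scn1a (35.7) and Cacna2d1 (29.1) all inside. Receptor tyrosine phosphatases had 7 of 21 at a median gene length of 151 kb, led by Ptprm (65.9), Ptprd (41.5) and Ptpra (34.0). Solute carriers had 49 of 389, 12.6%, led by Slc16a7, a monocarboxylate transporter (69.8). ABC transporters had 4 of 50, led by Abcc4 (44.2), and phosphodiesterases 3 of 26, Pde7a (39.5), Pde2a (33.0) and Pde7b (25.1).

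Immune and matrix families had shares by gene from 8.39 to 18.97%, beside 11.8% of all protein-coding genes. By peak, beside 3.49% of all sham peaks, the TNF superfamily had 4.90%, metalloproteases 3.81% and TGF-beta, BMP and SMAD genes 3.52%. Interleukins, chemokines and their receptors had 3.02%, and collagens, laminins and integrins 2.61% at a median gene length of 75.3 kb. Interleukins, chemokines and their receptors had 12 of 143, 8.39%, led by Il1rapl2 (42.2), Il12rb1 (40.9) and Il23r (38.9). The TNF superfamily had 4 of 35, among them Tnfrsf13b (37.6) and Tnfrsf26 (34.4). TGF-beta, BMP and SMAD genes had 11 of 58, 18.97%, led by Gdf11 (41.6), and collagens, laminins and integrins 12 of 86, 14.0%, led by Col24a1 (46.8), Col8a1 (46.3) and the integrin gene Itgav (44.2). Metalloproteases had 15 of 85, 17.6%, led by the neutrophil collagenase gene Mmp8 (60.3) and Adamts20 (58.5).

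Olfactory receptors had 21 of 1110, 1.89%, and vomeronasal receptors 5 of 355, 1.41%, at median lengths under 1 kb. By peak these were 2.69% and 1.20% of their nearest sham peaks, beside 3.49%. Olfr1322 (76.5) and Vmn2r97 (54.4) stood highest, 30.6 and 45.6 kb from their peaks. Cytosolic ribosomal proteins had 6 of 84 genes and 3.43% of their nearest sham peaks, among them Rpl11 (49.6) and Rpl5 (38.8). Cytochromes P450 and glucuronosyltransferases had 6 of 121 genes, 4.96%, and 2.43% of their nearest sham peaks, led by Cyp2b23 (40.5). Keratins, structural proteins of epithelia, had none of 53, with 31 sham peaks in all nearest to them, too few to read a share by peak.

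**Figure D5:**
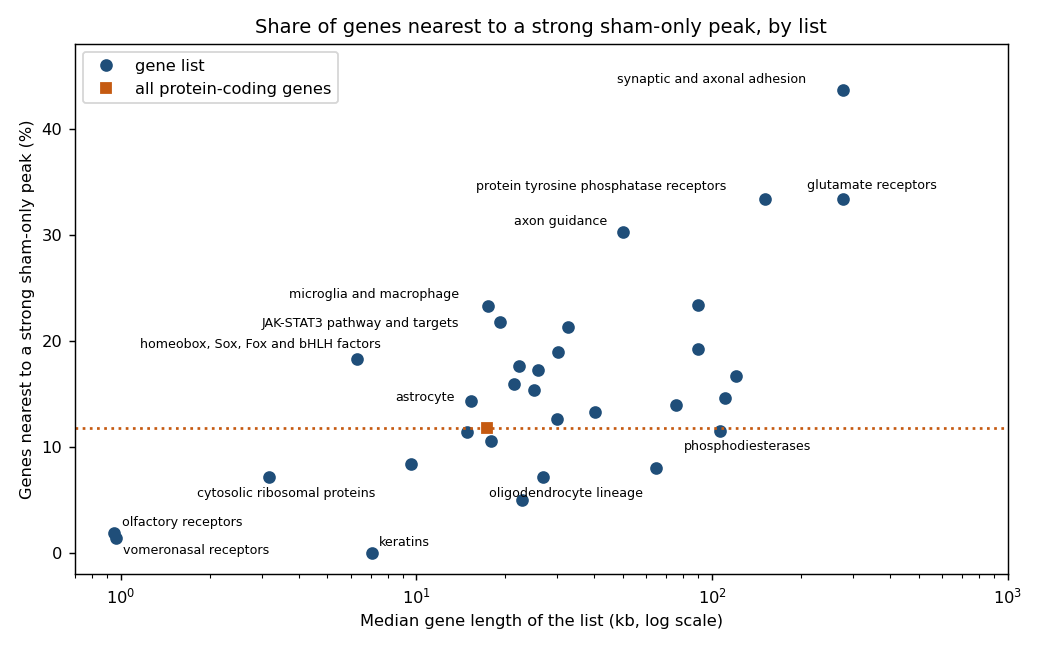
Share of genes in each list that were nearest to a strong sham-only peak (y axis, percent) against the median gene length of the list (x axis, kb, log scale). Synaptic and axonal adhesion (276 kb) stands at 43.7% and olfactory receptors (0.95 kb) at 1.89%, yet phosphodiesterases (106 kb) stand at 11.5% and homeobox, Sox, Fox and bHLH factors (6.27 kb) at 18.3%; the dotted line marks 11.8% for all protein-coding genes.

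Most genes nearest to a strong sham-only peak also carried an SCI peak at another position. An SCI peak lay in the gene or within 5 kb at 1618 of the 2546 genes, 63.6% (61.6 to 65.4%), beside 44.4% of all protein-coding genes. Among genes over 100 kb the shares were 93.7% (91.9 to 95.3%) and 91.4%. Among shorter genes they were 48.6% (46.2 to 51.0%) and 38.4%, where the median lengths still differed, 27.1 kb against 14.3 kb.

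By chromosome, the strong sham-only peaks made up between 2.52% (X) and 4.36% (chromosome 11) of the sham peaks. Chromosome 11 had 209 of them and X 116. The share of strong sham peaks that had no SCI peak within 1 kb lay between 66.3% on chromosome 15 and 78.3% on chromosome 11.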

How the data were processed

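The labels assign 1 STAT3 ChIP library and 1 input library to each condition. The 2 deposited STAT3 peak lists were used, matched to their samples by title, with no use of the inputs. Per the submitters' processing notes, Bowtie2 and the build mm10 were used. How peaks were called, against which control and at what threshold and depth, is not given in the sources used. The authors deposited for each peak a score of unknown scale and a −log10 value in the place of a q-value. The deposited offset of the peak point was not used.

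The gap between peaks, the location of peak centres and the nearest protein-coding gene (distance to the gene body, ties to the smaller gene) were computed with the RefSeq table of GRCm38.p6. Start sites and their sequences came from RefSeq windows of the same build. These list a start for 79.9% of the protein-coding genes. Shares near starts rest on these listed starts; both gene ends were an alternative. Some items that the naming rule would give, among them the gene at 1 of the 10 highest peaks, are not reported here. No genome was used, so peaks away from starts have no sequence here. Motifs were searched on both strands.

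No test was run: there is 1 library per condition, and the peaks were chosen by score and position. The intervals given with shares are 95% exact binomial (Clopper-Pearson) intervals, and the shares of the gene lists carry none. The peak set and the gene lists were chosen with earlier results of these data known, and the pattern for synaptic adhesion genes was corrected after its values were seen, since it had taken in unrelated Lrrc genes. Runs of A or T were counted after the sequences were seen. Named genes are those at the 10 highest peaks, the 10 genes with the most peaks, the 10 highest peaks within 1 kb of a start, up to 3 per list and those at the threshold; others are marked as picked, or complete a list. The gap step, tested on simulated data, returned 2000 of 2000 planted gaps. The nearest-gene distance equalled a plain recount for 200 of 200 sham peaks of the list. Alternatives were other score thresholds, gap limits, widths, score forms, merging, gene assignment and motif spans. Scripts ran in Python 3.11.15 with scipy 1.17.1 (intervals), pandas 2.3.3, numpy 2.4.6 and, for plots, matplotlib 3.10.9.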

Additional observations from a re-analysis of the deposited data

Results flagged for a closer look

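A signal lay in sequences that the rule leaves out. On unplaced sequences 3 sham peaks had a score of 25 or more and no SCI peak within 1 kb, the highest with 44.3, among 95 sham peaks of that score there. Chromosome Y had no sham peak that reached the score.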

How the results depend on the processing

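The score threshold set the size of the set. With a score of 20 or more there were 5891 peaks nearest to 4218 genes, 1112 of them with 2 or more, and with 40 or more 538 peaks, 515 genes and 21. The other gap limits (1 bp overlap, 5 kb, 10 kb), the usual width only, leaving out scores that follow a square-root series, and merging kept these 3 counts within 1.5 times. Counting only genes within 100 kb left 271 genes with 2 or more. The share inside protein-coding genes stayed within its interval in 8 of 8 alternatives. The share within 1 kb of a start was 0.975% at a score of 40 or more, and 3.84% with both gene ends on all chromosomes, a setting added after the data were seen. No STAT site was found at 40 or more, where only 2 peaks reached a start window, so the share was 0%. The share of peaks with an A or T run was 93.3% with at least 100 bases inside a window. The sequencing depth is unknown, so how far depth sets which peaks are sham-only was not tested. No paired analysis was possible because each group has 1 library and no test was run.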

Other observations

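Ubiquitin ligases and deubiquitinases, a group that marks proteins for degradation or removes the mark, had 51 of 332 genes nearest to a strong sham-only peak, 15.4% beside 11.8% of all protein-coding genes. They gathered 63 of 1298 sham peaks, 4.85% beside 3.49%, led by Fbxw4 (67.5, inside) and Ube2f (57.0, 3.89 kb away). Wnt and Frizzled genes had 7 of 44 with 9 of 174 sham peaks, 5.17%, among them Sfrp2 (50.3), Wnt11 (35.6) and Wnt5b (31.4). Zinc finger genes had 49 of 465, 10.5%, with 61 of 1592 sham peaks, 3.83%, led after Zfp978 by Zfp710 (60.2) and Zbtb10 (60.0). Homeobox, Sox, Fox and bHLH factors had 43 of 235, 18.3%, at a median gene length of 6.27 kb, with 51 of 1570 sham peaks, 3.25%; Hey2 (64.3), Tcf7l1 (58.0) and Irx2 (55.8) led.

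Counted in bins of 1 Mb, 8 bins held 7 strong sham-only peaks, the most of any bin. That on chromosome 11 from 96 to 97 Mb had 70 sham and 25 SCI peaks, and its strong sham-only peaks were nearest to Igf2bp1, Ttll6, Hoxb9, Skap1 and Nfe2l1. That on chromosome 8 from 106 to 107 Mb had 74 sham and 18 SCI peaks and included the 4 peaks inside Tango6. No listed microRNA hairpin overlapped a strong sham-only peak. Within 1 kb of one lay 3, Mir8094 at 112 bp, Mir1892 at 815 bp and Mir343 at 837 bp. The same was not counted for all sham peaks, so these numbers have no background beside them.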
